A study of Mus musculus with 8 samples.

Results

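The clustered protocadherin genes encode cadherin-like adhesion proteins of the cell surface and lie in 3 neighbouring clusters, Pcdha, Pcdhb and Pcdhg, on mouse chromosome 18. The genes described here were all protein-coding genes of that chromosome whose symbol starts with Pcdha, Pcdhb or Pcdhg in the GENCODE annotation of GRCm38 (mm10), which gave 57 of 21853 protein-coding genes. The alpha cluster held 14 genes, of which 2 were C-type genes, the beta cluster held 22, and the gamma cluster held 21, with 12 of the A type, 6 of the B type and 3 of the C type. All were on the plus strand. 5-hydroxymethylcytosine (5-hmC) was measured by hMeDIP-seq, in which sonicated DNA is pulled down with an antibody to the modified base and sequenced, in B220+CD43+IgM- pro-B cells sorted from the bone marrow of C57BL/6 mice of 4 to 6 weeks. There were 2 libraries from HDAC7-deficient cells and 2 from cells labelled wild-type. The HDAC7-deficient mice were Hdac7 fl/- with mb1-Cre, in which the Cd79a (mb1) gene drives Cre in B-lineage cells. The controls are labelled wild-type and were Hdac7+/- littermates by the study's methods, so they carried 1 deleted copy, and whether they also carried Cre was not given in the sources used here. Nothing states whether a library came from 1 mouse or from a pool. The lists hold no expression values, so the cell type could not be checked against marker genes.

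In each protocadherin cluster a row of large first exons, the variable exons, follows one after the other, and each has its own promoter and codes for the whole extracellular part and the membrane span of a protein. In the alpha and gamma clusters a variable exon is spliced to 3 constant exons shared by the cluster, while beta genes have no constant exons. In neurons a cell uses only a few of these promoters, a choice tied to CTCF, cohesin and DNA methylation, and 5-hmC is made from 5-methylcytosine by TET enzymes. HDAC7 is a class IIa histone deacetylase known as a repressor in B cell progenitors.

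The measure throughout was the set of 5-hmC peaks listed for each library, given as the number of peaks or as covered bases, that is bases inside a peak. The lists carry positions alone, with no height and no read count, so the depth is unknown and a missing peak is a signal under the calling threshold at that depth, not an absence of 5-hmC. In a bulk sample, fewer cells that carry the mark and less of the mark in each cell cannot be told apart. The 4 lists held 1305200 to 1414862 peaks. On chromosome 18 the covered share was 9.33% in wild-type replicate 1, 10.9% in wild-type replicate 2, 9.27% in HDAC7-deficient replicate 1 and 12.2% in HDAC7-deficient replicate 2. HDAC7-deficient replicate 2 stood apart: its peak density on chromosome 18 was 1.12 times that on chromosomes 1 to 13, against 0.990 to 1.00 in the other 3 libraries. Its peaks there were also the widest, with a median of 182 bp against 147 to 167 bp. Values are therefore also given relative to the covered share of chromosome 18 in the same library, and without this library.

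The sharpest feature of the protocadherin genes was the place of the peaks inside the variable exons. When the 57 genes were aligned at their start codons, 5-hmC peaks gathered between 1200 and 1700 bp after the start codon, a band well inside the coding sequence, and were rare on both sides of it. Within the band, peaks covered 18.7% and 22.3% of the bases in the wild-type libraries against 18.2% and 28.4% in the HDAC7-deficient libraries, with a mean of 21.9%. Between 300 and 1200 bp the covered share was 0.550% to 5.43%, and between 1700 and 2300 bp it was 1.12% to 5.61%. In the first 300 bp after the start codon the covered share was 3.89% and 17.4% in the wild-type libraries against 8.84% and 11.2% in the HDAC7-deficient libraries. The band was the highest of these stretches in every library, by least in wild-type replicate 2, and the genotypes overlapped. The band was drawn after the profile had been seen, so its values are a description and no test was made.

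The beta genes had the strongest band in most libraries, with 31.4% covered on average against 19.8% in gamma and 10.2% in alpha genes. In wild-type replicate 2 the gamma genes were higher, with 27.3% against 22.6% in beta genes. In the 100 bp that start 1300 bp after the start codon, peaks covered 54.0% and 41.0% of the bases of the 22 beta genes in the wild-type libraries against 57.9% and 59.5% in the HDAC7-deficient libraries. From 400 to 600 bp and from 1900 to 2000 bp after the start codon no beta gene had a covered base in any of the 4 libraries. The gamma genes had their highest value at the same distance, with 26.9% and 35.8% in wild-type against 28.2% and 42.1% in HDAC7-deficient cells. The alpha genes had a lower and later crest, in the 100 bp from 1600 bp, with 14.8% and 24.1% in wild-type against 14.4% and 34.7% in HDAC7-deficient cells. This crest ran past the band, with a mean of 19.9% over the 4 libraries in the next 100 bp, and in wild-type replicate 2 the alpha genes were covered more, at 31.8%, in the 100 bp from 2800 bp. The centre of the peaks reaching the band, taken as the median for each gene, lay at a median of 1380.5 bp in beta genes, 1407 bp in gamma genes and 1625.5 bp in alpha genes.

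**Figure D1:**
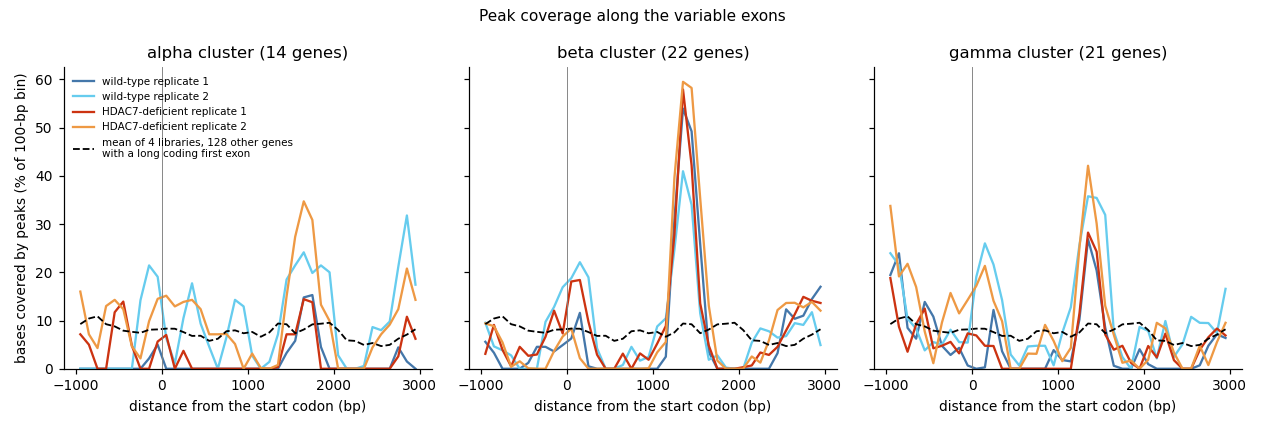
Share of bases covered by peaks (%) in 100-bp bins against the distance from the start codon (bp), for the alpha, beta and gamma genes, with 1 line for each library and a dashed line for the mean over the 4 libraries of 128 other genes with a long coding first exon. In the beta genes all 4 libraries rise between 1200 and 1700 bp, to 41.0% to 59.5%, while the dashed line has no such crest.

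The average over other genes with a long coding first exon did not have this profile. Among 128 other protein-coding genes with at least 2000 coding bases in the first exon, the same band was covered at 7.70%, 8.21%, 6.39% and 11% in wild-type replicates 1 and 2 and HDAC7-deficient replicates 1 and 2. The stretch before it had a mean of 7.0% and the stretch after it 7.96%, so the average of the 128 genes was nearly flat. An average cannot show a crest that lies at another distance in each gene. Over the 17401 genes with coding bases in the first exon the mean was 10.2% in the band and 10.6% in the stretch before it. These distances were counted whether or not the first exon reached that far. The 128 genes included 8 non-clustered protocadherins, which are relatives of the same cadherin superfamily spread over other loci. Of these, Pcdh17 had 172 bp covered in wild-type replicate 2, and Pcdh7, Pcdh8, Pcdh9, Pcdh10, Pcdh12, Pcdh18 and Pcdh19 had no covered base in the band in any library.

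Of the 22 beta genes, 20 had a peak in the band in at least 2 libraries, a share not counted over other genes. In all 4 libraries 6 had one (27.3%). That compares with 5.47% of the 128 other genes and 9.22% of the 17401 genes with coding bases in the first exon. The 6 genes were Pcdhb2, Pcdhb4, Pcdhb7, Pcdhb16, Pcdhb17 and Pcdhb18. Pcdhb2 had 182 and 217 bp covered in the band in wild-type against 273 and 275 bp in HDAC7-deficient cells. Pcdhb18 had 323 and 241 bp in wild-type against 199 and 175 bp in HDAC7-deficient cells. Pcdhb7 had 130 and 204 bp in wild-type against 341 and 255 bp in HDAC7-deficient cells, and Pcdhb16 had 276 and 348 bp and 28 and 23 bp. At these 4 genes the genotypes did not overlap, with Pcdhb2 and Pcdhb7 higher and Pcdhb16 and Pcdhb18 lower in HDAC7-deficient cells, while at Pcdhb4 and Pcdhb17 they overlapped. Over all 57 genes, both HDAC7-deficient libraries were above both wild-type libraries within the band in 8 (14%) and below in 3 (5.26%), against 5.45% and 6.05% of the 17401 genes with coding bases in the first exon. Most of the 17401 genes had no peak there in at least 1 library, as did all but 10 of the 57. The band was drawn where the 57 genes had most coverage, so these shares are not on equal terms. Pcdhb1 and Pcdhb11 had no covered base in the band in any library (9.09%, against 50.8% of the 128 other genes and 42.5% of the 17401). Pcdhb1 is the first gene of the row and Pcdhb11 lies near its middle.

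In the gamma cluster Pcdhga2, Pcdhga5 and Pcdhgc5 had a peak in the band in all 4 libraries (14.3% of 21 genes). The shares were 5.47% of the 128 other genes and 9.22% of the 17401 genes with coding bases in the first exon. Pcdhgc5, the last gene of the cluster and a C-type gene, had 227 and 312 bp in wild-type against 188 and 292 bp in HDAC7-deficient cells. Pcdhgb1, Pcdhgb2, Pcdhga11 and Pcdhgc3 had none in any library (19.0%, against 50.8% of the 128 other genes and 42.5% of the 17401). The A-type and B-type genes alternate along the cluster. No B-type gene had a peak in the band in all 4 libraries, and Pcdhgb5 and Pcdhgb7 had one in 3. Among the A-type genes only Pcdhga2 and Pcdhga5 had one in all 4. The share of 50-bp stretches of the band found more than once in the clusters was highest at Pcdhgb1 and Pcdhgb2, 30.8% and 26.8%. It was 0 at Pcdhgb7 and at every A-type and C-type gene, with Pcdhga11 and Pcdhgc3 among them. In the alpha cluster 1 gene had a peak in the band in all 4 libraries (7.14%), a share below the 9.22% of the 17401 genes. This was the Pcdha11 gene with the identifier ENSMUSG00000007440, with 107 and 420 bp in wild-type against 288 and 283 bp in HDAC7-deficient cells. A second gene carries the same symbol in the annotation, ENSMUSG00000102206, and it had 275 bp in HDAC7-deficient replicate 2 and none elsewhere. Pcdha1, Pcdha5, Pcdha9 and Pcdhac1 had none (28.6%, beside the same 50.8% and 42.5%).

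**Figure D2:**
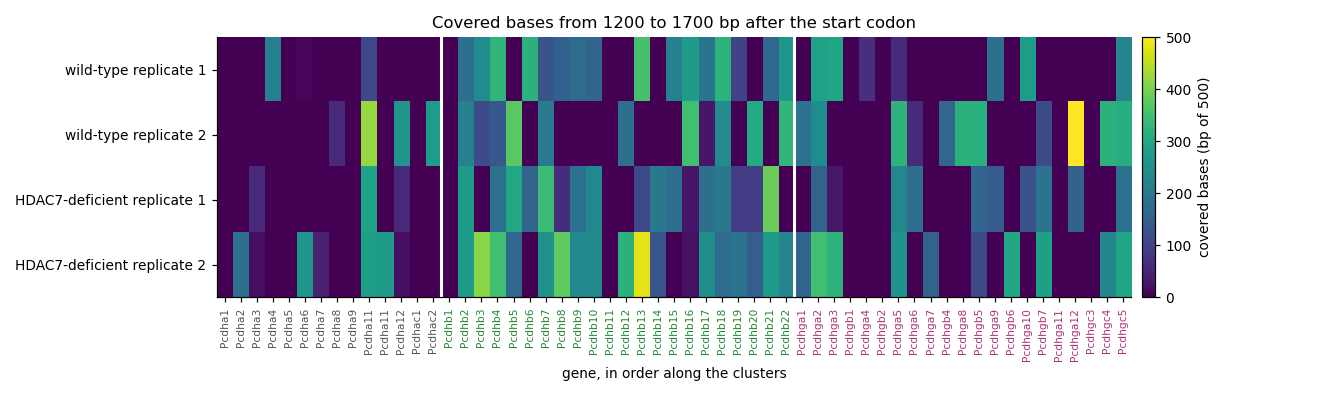
Covered bases between 1200 and 1700 bp after the start codon, in bp out of 500, for each of the 57 genes in their order along the clusters (columns) and each library (rows), with white lines between the alpha, beta and gamma clusters. The beta block is the most filled except in wild-type replicate 2. Of its 22 genes, 16, 11, 17 and 18 had a covered base in wild-type replicates 1 and 2 and HDAC7-deficient replicates 1 and 2. Of the 21 gamma genes, 7, 11, 10 and 10 had one, in the same order.

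CpG is the dinucleotide that carries nearly all DNA methylation, and its density differed between the stretches. In the beta genes the band was the richest of them, with 41.3 CpG per kb, against 19.1 in the first 300 bp after the start codon, 20.5 in the stretch before the band and 33.7 in the stretch after it. Peaks covered 31.4% of the beta band on average, against 11.2%, 1.93% and 1.11% of the other stretches in that order. Bins of 100 bp did not keep this order. The beta bins from 1200 and 1300 bp held 14.1 and 34.1 CpG per kb, with 30.8% and 53.1% covered on average. Those from 1600 and 1800 bp held 70.9 and 61.4 CpG per kb, with 5.82% and 0.0568% covered. In the gamma genes the first 300 bp were the richest, with 60.8 CpG per kb and 12.3% covered, while the band held 38.3, the stretch before it 34.6 and the stretch after it 36.3, with covered shares of 19.8%, 2.79% and 3.29%. In the alpha genes the first 300 bp after the start codon had 63.1 CpG per kb and the band 62.7, with covered shares of 5.88% and 10.2%. The part of CpG density in the profile was not tested. Variable exons resemble each other, and reads that match several of them are hard to place. The share of 50-bp stretches that occur more than once in the clusters was 27.3% in the alpha band, 8.46% in the beta band and 3.94% in the gamma band, and 2.18%, 8.66% and 8.43% in the stretch from 1700 to 2300 bp. In the first 300 bp it was 34.7% in alpha, 5.62% in beta and 6.67% in gamma genes. From 300 to 1200 bp it was 9.10%, 6.83% and 0.952%. The part of read placement in the profile was not tested.

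Counted as whole intervals, the 3 clusters carried somewhat less 5-hmC peak coverage than their chromosome in most libraries. The alpha cluster spans chr18:36930184-37187661, the beta cluster chr18:37264938-37524479 and the gamma cluster chr18:37661793-37841873 (GRCm38, gene starts and ends). The alpha cluster held 94 and 126 peaks in wild-type against 129 and 174 in HDAC7-deficient cells. The beta cluster held 102 and 126 peaks in wild-type against 137 and 150 in HDAC7-deficient cells. In these clusters the HDAC7-deficient libraries had more peaks than the wild-type libraries without overlap, a split that all chromosome 18 showed too, with 45094 and 49340 peaks against 49518 and 51411. The gamma cluster held 80 and 110 peaks in wild-type against 84 and 103 in HDAC7-deficient cells, which overlapped.

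Peaks covered 6.8% and 9.0% of the alpha cluster in wild-type against 7.86% and 13.8% in HDAC7-deficient cells. For the beta cluster the shares were 6.94% and 9.38% in wild-type against 8.09% and 12.5% in HDAC7-deficient cells, and for the gamma cluster 7.13% and 11.6%, and 7.32% and 11%. Divided by the covered share of chromosome 18 in the same library, the geometric mean over the 4 libraries was 0.873 for alpha, 0.870 for beta and 0.875 for gamma. HDAC7-deficient replicate 2 was the exception for alpha and beta, at 1.13 and 1.02, and wild-type replicate 2 for gamma, at 1.07. A two-sided exact sign-flip test over the 4 libraries gave p = 0.25 for each cluster, where the smallest value 4 libraries allow is 0.125, so a shortfall was not shown beyond the spread between libraries.

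The stretches between and beside the clusters had other levels. The alpha-beta gap, which holds no clustered protocadherin gene, was covered at 1.27 and 1.53 times the share of chromosome 18 in wild-type and at 1.32 in both HDAC7-deficient libraries. That is above chromosome 18 in 4 of 4 libraries (exact sign-flip p = 0.125, the smallest possible). The beta-gamma gap lay between 0.883 and 1.05. The 500 kb after the gamma cluster lay between 1.14 and 1.40, again above chromosome 18 in every library, and the 500 kb before the alpha cluster between 0.963 and 1.07. Against the 500 kb on each side as a single background, the clusters were at 0.749 (alpha), 0.747 (beta) and 0.751 (gamma).

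**Figure D3:**
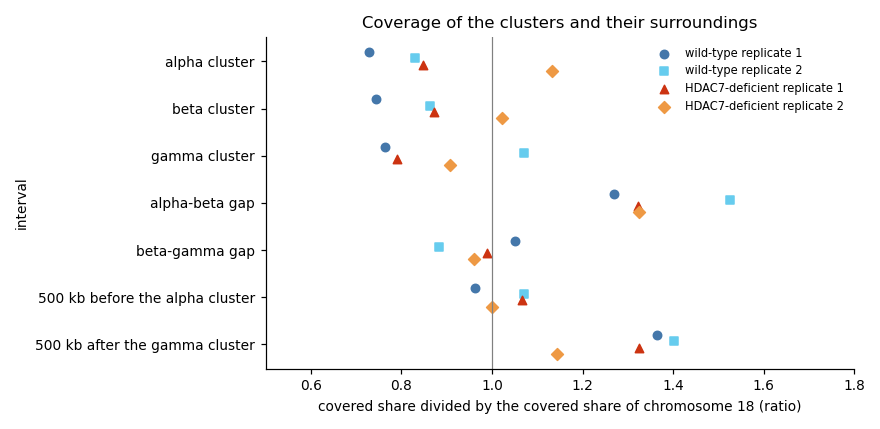
Covered share of each interval divided by the covered share of chromosome 18 in the same library (ratio), with 1 point for each library and a line at 1. The 3 clusters lie below the line in 3 of 4 libraries each, and the alpha-beta gap and the 500 kb after the gamma cluster lie above it in all 4.

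**Figure D4:**
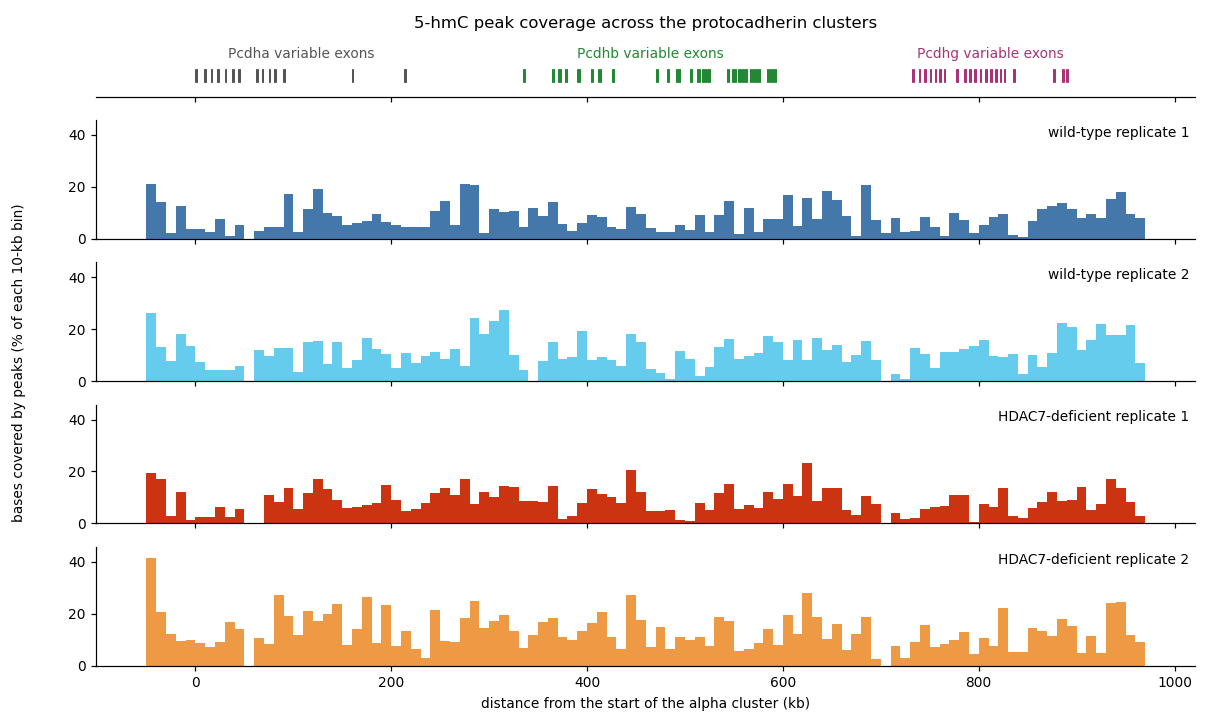
Share of each 10-kb bin covered by peaks (%) against the distance from the start of the alpha cluster (kb), 1 panel for each library, with the variable exons drawn above. Coverage is spread over the whole locus in every library, and the lowest bins include those from 50 kb and from 700 kb, with at most 0.27% and 2.31% in any library.

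Gene by gene, peaks were counted in a window of the variable exon with 2 kb on each side. The windows of 6 alpha, 14 beta and 18 gamma genes overlap that of another member, so that a peak can count for more than 1 gene. Most genes had a peak: 4, 1, 3 and 1 of the 57 windows held none in wild-type replicates 1 and 2 and HDAC7-deficient replicates 1 and 2. The median window had 403 and 678 bp covered in wild-type against 414 and 780 bp in HDAC7-deficient cells. Replicate 2 of each genotype was the higher. By mean covered share the members stood at a median percentile of 38.5 among all protein-coding genes, ranging from 9.87 to 80.2, and 38 of 57 lay in the lower part of that ranking, below percentile 50. The median percentile was 31.5 for alpha, 36.9 for beta and 43.8 for gamma genes.

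The highest window was that of Pcdhb21 (exon at chr18:37513621-37518325), with 782 and 1635 bp covered in wild-type against 968 and 1398 bp in HDAC7-deficient cells. Pcdhgc4, a C-type gene (exon at chr18:37815079-37817983), had 797 and 1578 bp in wild-type against 723 and 1181 bp in HDAC7-deficient cells. For both genes the replicates differed more than the genotypes did. Pcdhb2 (exon at chr18:37294812-37297624), Pcdhb18, Pcdhga11 and Pcdhb15 followed, with means of 1045.75, 1043.75, 1015.5 and 954.5 bp over the 4 libraries. Beta genes were therefore 4 of the 6 highest. Some beta exons are annotated as long, up to 8695 bp for Pcdhb14 because of their untranslated ends, and a longer window can hold more covered bases.

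The lowest window was that of Pcdha9 (exon at chr18:36997880-37000360), with 0 and 427 bp in wild-type against 0 and 219 bp in HDAC7-deficient cells. Pcdhb10 had 164 and 0 bp in wild-type against 233 and 254 bp in HDAC7-deficient cells. Both rest on a handful of peaks, 4 in Pcdha9 and in Pcdhb10 over the 4 libraries. Pcdhgb1, Pcdhgc3, Pcdhb1 and Pcdha3 were the next lowest, with means of 176, 180.5, 213.75 and 256.75 bp.

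The C-type genes are the last of the alpha and gamma rows and in neurons are used without the random choice that governs the others. Their windows had no common level. Pcdhac1 had 0 and 426 bp in wild-type against 409 and 861 bp in HDAC7-deficient cells, and Pcdhac2 had 468 and 1056 bp and 489 and 1237 bp. Pcdhgc5 had 600 and 1612 bp in wild-type against 364 and 864 bp in HDAC7-deficient cells. Pcdhgc3 was the low member, with 227 and 267 bp in wild-type against 133 and 95 bp in HDAC7-deficient cells. It also had the highest CpG density of all variable exons, 58.0 per kb. Of the genes that open or close a row, Pcdha1 had 407 and 941 bp in wild-type against 0 and 971 bp in HDAC7-deficient cells, Pcdhb22 had 755 and 1422 bp and 491 and 711 bp, and Pcdhga1 had 501 and 1201 bp and 217 and 747 bp.

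**Figure D5:**
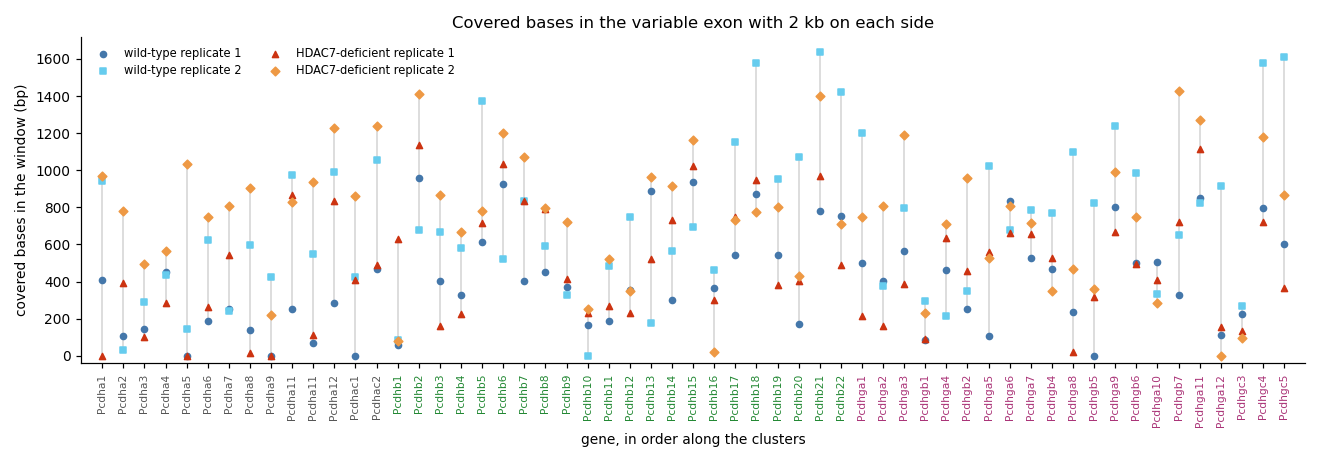
Covered bases (bp) in the variable exon with 2 kb on each side for each gene in its order along the clusters, with 1 point for each library and a grey line over their range. The points of the 2 genotypes are interleaved for most genes, and replicate 2 of either genotype is often the highest.

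The variable exon itself was compared with its flanks. Over all members the exons were covered at 0.792 and 1.02 times the share of the flanks in wild-type and at 0.966 and 0.808 times in HDAC7-deficient cells. The geometric mean was 0.891 (two-sided exact sign-flip p = 0.25), close to the 0.843 of all protein-coding genes. By cluster, chosen after the data were seen, the ratio was 1.21 in beta genes (1.24 and 1.16 in wild-type, 1.53 and 0.960 in HDAC7-deficient cells) and 0.651 in gamma genes (0.399 and 0.879 in wild-type, 0.596 and 0.857 in HDAC7-deficient cells). The gamma exons were below their flanks in all 4 libraries (exact sign-flip p = 0.125, the smallest possible) and the beta exons above theirs in 3 of 4 (p = 0.25). The alpha exons had 0.499 and 1.15 in wild-type against 0.438 and 0.639 in HDAC7-deficient cells, with a geometric mean of 0.633. CpG density ran the other way between clusters, with a median of 20.7 per kb in beta exons, 38.2 in gamma exons and 46.8 in alpha exons. Beta exons take in long untranslated ends, with lengths of 2588 to 8695 bp. Gamma exons had 2542 to 3247 bp and alpha exons 2346 to 3028 bp, so unlike parts are compared. The part of exon length in this order was not tested. Across the 57 exons the covered share and the CpG density had a Pearson r of -0.21 and a Spearman rho of -0.172, a description over genes that share the same 4 libraries. Within the clusters r was -0.194 in alpha, 0.110 in beta and -0.0238 in gamma exons, so the pooled value was not seen in each cluster.

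The comparison of HDAC7-deficient with wild-type cells asks whether the loss of HDAC7 changed 5-hmC at these genes. Over the merged windows of all members, 20662 and 35444 bp were covered in wild-type against 23619 and 39143 bp in HDAC7-deficient cells, a ratio of means of 1.12 ± 0.572 (SD, n = 2 per group). The ratio was 1.37 ± 0.598 for the alpha cluster, 1.26 ± 0.463 for the beta cluster and 0.979 ± 0.435 for the gamma cluster. In covered bases no difference exceeded the spread between replicates: over these 4 ratios the smallest p of the two-sided exact permutation test was 0.667 (0.889 after Benjamini-Hochberg adjustment), where 2 libraries against 2 cannot go below 0.333. Divided by the covered share of chromosome 18, the ratio was 1.27 ± 0.284 for alpha and 1.18 ± 0.181 for beta, and the groups did not overlap (exact permutation p = 0.333, the smallest possible, for each). By number of peaks the ratios were 1.38 ± 0.405 for alpha and 1.26 ± 0.204 for beta, again without overlap and with the same p. The groups overlapped for gamma and for the windows on both scales, with 0.924 and 1.05 after division and 0.984 and 1.11 by number of peaks.

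Without HDAC7-deficient replicate 2 the ratios of covered bases for alpha, beta and the windows were 0.994, 0.992 and 0.842. In the same 3 libraries the ratios divided by the covered share of chromosome 18 were 1.09 for alpha, 1.09 for beta and 0.930 for the windows, and by number of peaks they were 1.17, 1.2 and 0.954. The excess in the alpha and beta clusters thus rested on that library in covered bases. On the other 2 scales HDAC7-deficient replicate 1 was still above both wild-type libraries, but little above wild-type replicate 2. Relative to chromosome 18 it had 0.847 against 0.829 for alpha and 0.872 against 0.864 for beta. Its peaks numbered 129 against 126 for alpha and 137 against 126 for beta. Wild-type replicate 1 was lower, at 0.729 and 0.744, with 94 and 102 peaks.

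Window by window, both HDAC7-deficient libraries were above both wild-type libraries in covered bases in 14 of 57 members (24.6%), and below in 4 (7.02%). Over the windows of all protein-coding genes the shares were 12.8% above and 16.6% below, and over those of chromosome 18 13.1% and 16.2%. Scaled by the covered share of chromosome 18, 13 were above (22.8%) and 5 below (8.77%), against 11.9% and 20% of the genes of that chromosome, with 12 and 4 of them shared with the unscaled counts. Counted by peaks in place of bases, 6 were above (10.5%) and 2 below (3.51%), against 8.6% and 9% of all protein-coding genes. Of the 14, 2 were alpha genes, 8 beta genes and 4 gamma genes, and of the 4, 3 were beta genes and 1 was Pcdhgc3. Leaving out 1 library leaves 2 values against 1 and so a looser count. Without wild-type replicate 1 it was 15 above (26.3%) and 24 below (42.1%), against 26.8% and 38.2% of all protein-coding genes, and without HDAC7-deficient replicate 2 it was 15 above (26.3%) and 20 below (35.1%), against 26% and 32.5%. Without wild-type replicate 2 it was 30 above (52.6%) and 6 below (10.5%), against 28.6% and 30.3%, and without HDAC7-deficient replicate 1 it was 30 above (52.6%) and 8 below (14%), against 30.9% and 31.9%. The excess of genes above therefore rested on wild-type replicate 1 as well as on HDAC7-deficient replicate 2. The members share 4 libraries and are not replicates, and no test was made.

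The widest gap among the genes above was at Pcdha7 (exon at chr18:36973802-36976278), with 251 and 243 bp in wild-type against 544 and 806 bp in HDAC7-deficient cells. Pcdha2 had 107 and 32 bp in wild-type against 390 and 780 bp in HDAC7-deficient cells. Pcdhga11 had 852 and 826 bp and 1112 and 1272 bp, with the groups 260 bp apart. The first pair lies in the alpha row, and Pcdhga11 near the end of the A and B genes of the gamma row. Pcdhb8 had 452 and 592 bp in wild-type against 789 and 797 bp in HDAC7-deficient cells, and Pcdhb2 had 957 and 678 bp and 1138 and 1410 bp. Pcdhga4, Pcdhb14 and Pcdhb6 had gaps of 174, 164 and 112 bp. The remaining 6 of the 14, with narrower gaps down to 2 bp at Pcdhb7, were Pcdhgb2, Pcdhb15, Pcdhb10, Pcdhgb7, Pcdhb9 and Pcdhb7.

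Among the genes below, Pcdhgc3 had the widest gap, 94 bp, with the values given above. Pcdhb16 (exon at chr18:37477814-37483038) had 366 and 462 bp in wild-type against 299 and 23 bp in HDAC7-deficient cells, a gap of 67 bp. Its band held 276 and 348 of these bases in wild-type against 28 and 23 in HDAC7-deficient cells. Pcdhb22 had a gap of 44 bp and Pcdhb12 a gap of 1 bp, with 352 and 748 bp in wild-type against 229 and 351 bp in HDAC7-deficient cells. For a single gene the exact permutation test of 2 against 2 libraries can give no p below 0.333, which every gene without overlap reaches.

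Peaks that overlapped by at least 1 bp were joined into regions over the 4 libraries. The clusters held 674 regions, of which 369 (54.7%) had a peak in 1 library alone and 79 (11.7%) in all 4, against 52.7% and 12.5% over the genome. A region was called gained where both HDAC7-deficient libraries and no wild-type library had a peak, and lost in the reverse case. In the clusters 34 regions (5.04%) were gained, against 2.92% of the regions of the genome and 3.26% of those of chromosome 18. There were 7 lost regions (1.04%), against 2.4% over the genome and 2.14% on chromosome 18. The alpha cluster had 14 gained and 3 lost regions, the beta cluster 14 and 1, and the gamma cluster 6 and 3. With peaks of at least 200 bp alone, 16 regions were gained and 8 lost. The shares over the genome and chromosome 18 were not counted for such peaks, so these counts have no background. Without wild-type replicate 1 the order turned, with 92 gained (14.2%) and 159 lost (24.5%), against 10.7% and 22% of the regions of chromosome 18. Without wild-type replicate 2 there were 64 gained (11.4%) and 47 lost (8.35%), against 7.92% and 14.2%. Without HDAC7-deficient replicate 1 there were 160 gained (25.6%) and 21 lost (3.36%), against 20.4% and 6.1%, and without HDAC7-deficient replicate 2 there were 120 gained (19.9%) and 26 lost (4.31%), against 17.4% and 5.66%. The order in the clusters thus turned only without wild-type replicate 1, where that of chromosome 18 turned too. On chromosome 18 it also turned without wild-type replicate 2. With each library left out, the gained share of the clusters stayed above that of chromosome 18. The lost share was above that of chromosome 18 without wild-type replicate 1 and below it otherwise.

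Of the 34 gained regions 12 touched a variable exon, 8 lay in a flank and 14 outside every window, and none of the 7 lost regions touched a variable exon. Of the 697101 bp of the clusters, variable exons take up 183532 bp and the parts outside every window 340915 bp. The counts are few and were not tested against these lengths. At the C-type genes of the alpha cluster a gained region lay at the start of the exon. That of Pcdhac1 (chr18:37090044-37090301) had 177 and 258 bp of peak in the HDAC7-deficient libraries, and that of Pcdhac2 (chr18:37143239-37143635) had 201 and 303 bp. The widest gained regions of the alpha row lay before the exons of Pcdha12 (chr18:37018371-37019030), with 509 and 660 bp of peak, and of Pcdha11 (chr18:37003208-37003759), with 433 and 524 bp. In the beta cluster 6 gained regions touched exons, from 27 bp wide at Pcdhb8 to 296 bp at Pcdhb14 (chr18:37449089-37449384), which had 200 and 134 bp of peak. Another, at Pcdhb1 (chr18:37264994-37265053), had 54 and 44 bp. In the gamma cluster gained regions touched the exons of Pcdhga8, Pcdhga9 and Pcdhgc5, and the lost ones lay between Pcdhgb4 and Pcdhga8, after Pcdhga12 and at chr18:37796054-37796268, outside every window.

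Of the 79 regions with a peak in all 4 libraries, 15 touched a variable exon, and 9 of these were in beta genes. Beta exons also hold 92052 of the 183532 bp of variable exons, so the count is near their share of length. At Pcdhb2 the region (chr18:37296142-37296493) had 182 and 217 bp of peak in wild-type against 305 and 309 bp in HDAC7-deficient cells. At Pcdhb4 (chr18:37308872-37309313) there were 328 and 137 bp and 187 and 349 bp. At Pcdhb7 (chr18:37343034-37343508) there were 130 and 200 bp and 340 and 255 bp. All 3 regions overlap the band of their gene, and that of Pcdhb2 begins before it. Pcdhb18 had a second region shared by all 4 libraries further along its exon (chr18:37492445-37492901), with 308 and 457 bp in wild-type against 407 and 295 bp in HDAC7-deficient cells.

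The constant exons code for the shared cytoplasmic ends of the alpha and gamma proteins. From the first to the last alpha constant exon (chr18:37156155-37187657), 2492 and 2992 bp were covered in wild-type against 3331 and 3769 bp in HDAC7-deficient cells, a ratio of 1.29 ± 0.202 without overlap of the groups (exact permutation p = 0.333, the smallest possible). Across the gamma constant exons (chr18:37825021-37841873) 1424 and 2562 bp were covered in wild-type against 1858 and 1396 bp in HDAC7-deficient cells, with overlap. The first alpha constant exon with 2 kb on each side was nearly free of peaks, with at most 1 peak in a wild-type library and 0 and 3 peaks in the HDAC7-deficient libraries. The interval between the exons of Pcdha12 and Pcdhac1, which holds no variable exon, had 7497 and 6933 bp covered in wild-type against 7413 and 11808 bp in HDAC7-deficient cells, so here the replicates of the HDAC7-deficient group differed most.

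Replicates agreed on the members only loosely. Over the 57 windows the covered bases of the wild-type libraries had a Pearson r of 0.457, those of the HDAC7-deficient libraries 0.542, and the highest value was between replicate 1 of each genotype, 0.661. The lowest was between wild-type replicate 2 and HDAC7-deficient replicate 2, 0.305. Over all protein-coding genes the covered shares gave 0.519 within wild-type, 0.541 within HDAC7-deficient cells and 0.666 between replicates 1.

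Of other genes of the family, all 11 non-clustered protocadherins listed were found. They stood at a median percentile of 30.3 by covered share, and 3 of the 11 were above and 2 below in the HDAC7-deficient libraries, where 12.8% and 16.6% of all protein-coding genes were. The highest by covered bases were Pcdh10, with 729 and 689 bp in wild-type against 1145 and 1199 bp in HDAC7-deficient cells, and Pcdh1, with 492 and 1446 bp and 629 and 457 bp. The lowest were Pcdh11x, with 147 and 106 bp and 152 and 162 bp, and Pcdh18, with 0 and 267 bp and 350 and 238 bp.

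Among 9 genes whose products act on the clusters, 2 were above and 1, Rad21 (a cohesin subunit), was below, beside the same 12.8% and 16.6%, and the median percentile was 62.8. Smchd1, which keeps clustered protocadherins silent in some tissues, had 789 and 626 bp in wild-type against 1075 and 928 bp in HDAC7-deficient cells. Wiz, a zinc finger protein, had 398 and 671 bp and 703 and 689 bp. The lowest were Smc3, a cohesin subunit, with 418 and 0 bp and 247 and 249 bp, and Wapl, which releases cohesin, with 152 and 423 bp and 145 and 228 bp. The window at the first exon of Hdac7 had 677 and 480 bp covered in wild-type against 80 and 83 bp in HDAC7-deficient cells, a difference in 5-hmC peaks that does not check the deletion itself.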

How the data were processed

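Samples were 2 HDAC7-deficient and 2 wild-type hMeDIP libraries. The 4 matching input libraries were not analysed here. The deposited files list peak positions (chromosome, start, end) on mm10, 1 list per library, with no score. Per the study's methods and the submitters' processing notes, DNA was sonicated to 300 to 400 bp (350 bp per the labels), reads were trimmed with Trim Galore 0.4.2 and aligned with bwa 0.7.12 by the methods or Bowtie2 by the notes, duplicates were marked with Picard 2.8.0, and the authors called peaks on the signal with MACS2 bdgpeakcall (threshold 250, minimum length 10, maximum gap 10). A threshold on signal makes peak number and width follow depth, enrichment and duplicates. By the methods, peaks that met a peak of the matching input were then taken out; whether the deposited lists precede or follow that step was not given in the sources used here. The study's differential analysis, which needs reads, was not repeated.

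Covered bases and peaks were counted with Python 3.11.15 and NumPy 2.4.6 over the first exon with the most coding bases of each gene (GENCODE M21) with 2 kb on each side, over the clusters, and by distance from the start codon. Counting was tested on simulated data with planted peaks. Groups were compared by exact permutation over 6 splits, and intervals with chromosome 18 by exact sign flips. The genes named were the 6 highest and 6 lowest by mean covered bases, up to 8 with the widest gap between genotypes in each direction, the C-type genes, the first and last of each cluster, and the 2 highest and 2 lowest of the other lists, plus the genes with a band peak in all 4 libraries or in none, Rad21 and the genes of gained and lost regions, chosen after their values were seen. Alternatives were wider peaks, merged peaks, other flanks, another first exon, scaling to chromosome 18, peak number, a replicate block and each library left out. The members and lists were chosen with earlier results of these data known. Pcdhgb8, annotated as a polymorphic pseudogene, was left out by the rule.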

Additional observations from a re-analysis of the deposited data

How the results depend on the processing

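Of 152 values recomputed under an alternative, 123 stayed within the spread between libraries or within 1.5 times the count reported, 21 moved further and 8 turned direction. All 8 that turned are ratios of HDAC7-deficient to wild-type values with 1 library left out. Leaving out each library gave 0.994 to 1.75 for the alpha cluster, 0.992 to 1.53 for the beta cluster, 0.780 to 1.29 for the gamma cluster and 0.842 to 1.52 for the merged windows. The values past 1 in the other direction were 0.994, 0.992 and 0.842 without HDAC7-deficient replicate 2, 0.885 for the windows without wild-type replicate 1, and 1.29 and 1.18 for gamma without wild-type replicate 2 and HDAC7-deficient replicate 1. Without HDAC7-deficient replicate 2 the windows were also at 0.930 when divided by the covered share of chromosome 18 and at 0.954 by number of peaks, both chosen after seeing the data. The counts of members above and below ranged from 15 to 30 and from 6 to 24, and those of gained and lost regions from 64 to 160 and from 21 to 159, since 3 libraries set a looser rule; the latter 2 ranges were added after seeing the data.

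With peaks of at least 200 bp, 7 members were below and 16 regions gained. With peaks at most 100 bp apart merged, 2 members were below. By number of peaks, 6 members were above and 2 below, and without flanks 9 were above. The shares over all genes or regions were not counted with wider peaks, merged peaks or no flanks, so those counts have no background. Why these counts moved was not tested. With each replicate number as a replicate block, the ratios were 1.33, 1.24, 0.987 and 1.12 for alpha, beta, gamma and the windows (smallest exact p 0.5, the lowest that block allows). The differences of replicate 1 from replicate 2 in the 2 genotypes had a Pearson r of 0.0725 over the members, so the numbers were not treated as pairs. The lists carry no reads, so depth limits every absence of a peak by an amount that is unknown. The band between 1200 and 1700 bp after the start codon covered 15.1% with peaks of at least 200 bp, and 19.8% to 23.1% with each library left out.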
